A study of Danio rerio with 12 samples.

Results

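The effect of losing il2rga was measured over all 12 bulk RNA-seq libraries of the series, the 6 libraries of animals with the il2rga mutation against the 6 of animals without it, with prkdc status held in the model. All 12 of the 12 libraries were members, chosen by the genotype in their labels. The libraries with the mutation came from 3 il2rga mutant and 3 double mutant zebrafish, and those without it from 3 prkdc mutant and 3 wild type zebrafish. The design text names the alleles as frameshifts, il2rga Y91fs and prkdc D3612fs, and the double mutants and prkdc mutants share the prkdc allele. The labels call the last group wildtype only, and give no strain, age, sex or batch for these animals, nor whether the mutations were homozygous. Poly(A) RNA was taken from the dissected whole kidney marrow of 1 animal per library, so the p-values measure spread between animals. The series asks which blood and kidney lineages the tissue holds and which are missing from immunodeficient fish.

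The common gamma chain is the product of il2rga, and in mammals this subunit is shared by the receptors for interleukins 2, 4, 7, 9, 15 and 21. These receptors signal through the kinases JAK1 and JAK3 to STAT5 and other STAT factors, and in mammals T cells and natural killer (NK) cells need them to develop and survive. The product of prkdc is a DNA repair kinase needed to close the breaks made when T and B cell receptor genes are rearranged. In zebrafish the kidney marrow is the adult blood-forming tissue and lies between the kidney tubules, so bulk RNA holds both.

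Total counts ran from 4756244 to 10311377 per library, and CPM below stands for counts after scaling to a common library size. The tissue matched its label in all 12 libraries, where the neutrophil lysozyme lyz, chosen after its values were seen, lay between 1319 and 4943 CPM and the tubule transporter slc12a3 between 189 and 1043 CPM. Transcripts of other tissues differed between the groups. The mean of 49 liver genes was 5.04, 6.24 and 1.33 log2 CPM in the il2rga mutants, in the order of their numbers, and 7.34, 5.56 and 4.53 log2 CPM in the double mutants, against 0.83 to 1.98 log2 CPM in the 6 libraries without the mutation. Liver RNA was thus high in 5 of the 6 libraries with the mutation, and il2rga mutant 3 lay among the libraries without it. A list of 68 very long transcripts had means of 4.95 to 5.42 log2 CPM with the mutation and 5.8 to 6.21 without it, with no overlap. Principal component 1 took up 41.7% of the variance and held il2rga mutant 3 at 13.9 and double mutant 3 at -3.2, the other 4 libraries with the mutation at -144.9 to -53.9 and the 6 without it at 42.2 to 67.5. Each result was therefore also read without the 4 libraries richest in liver RNA, which leaves il2rga mutant 3 and double mutant 3 against the same 6 libraries, and with the liver mean as a covariate. The part of the liver and long-transcript differences in the other results was not tested, except as those 2 fits and the fit with the long-transcript mean as a covariate show. In bulk tissue, fewer cells of a type and less RNA per cell cannot be told apart.

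The targeted gene followed the labels. il2rga (ENSDARG00000068858) had a lowest, median and highest level of 1.71, 3.15 and 6.17 CPM in libraries with the mutation, against 34.2, 40.1 and 61.5 CPM without it. The 2 sets did not overlap, and no library lay between 6.17 and 34.2 CPM. il2rga fell by 3.62 ± 0.30 (log2 fold change with the standard error of the fit, edgeR quasi-likelihood test, adjusted p = 7.17e-05), and stayed called without the 4 liver-rich libraries (adjusted p = 0.0107) and with the liver covariate (adjusted p = 0.0344). The log2 fold change was -3.52 between il2rga mutants and wild type and -3.73 between double and prkdc mutants. prkdc itself had a log2 fold change of -0.53 ± 0.18 and did not pass (adjusted p = 0.0513). Its mean was 55.7 CPM in wild type, 29.6 in il2rga mutants, 20.5 in prkdc mutants and 18.6 in double mutants. The log2 fold change was -0.91 against wild type and -0.14 against prkdc mutants (interaction unadjusted p = 0.0266, adjusted p = 0.788). Its prkdc term was -1.06 ± 0.18 (adjusted p = 0.0521). prkdc encodes one of the very long transcripts.

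Across 18370 genes tested, 4837 were called at an adjusted p under 0.05, which is 26.3%. Of these, 2434 were higher with the mutation (13.2%) and 2403 lower (13.1%), and 2283 differed by at least 2-fold (12.4%). All 6 libraries with the mutation lay above all 6 without it for 855 genes (4.65%) and below them for 1239 (6.74%), 11.4% together. The median log2 fold change of all tested genes was 0.054. Without the 4 liver-rich libraries 1559 genes were called (8.19%, with 3.66% higher and 4.53% lower), 1248 of them among the 4837. Of the 4667 calls that could be tested there, 4589 kept their sign. The liver covariate left 234 calls (1.27%, with 0.653% higher and 0.621% lower), 205 of them among the 4837, while 4508 kept their sign. With the mean of the very long transcripts as a covariate, added after the data were seen, 0 genes were called. This list's mean did not overlap between the groups, so its effect and that of the mutation cannot be told apart. A total of 188 genes (1.02%), 88 higher (0.479%) and 100 lower (0.544%), were called in the 12-library fit, without the 4 libraries and with the liver covariate, and are referred to as called in all 3 fits.

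**Figure D1:**
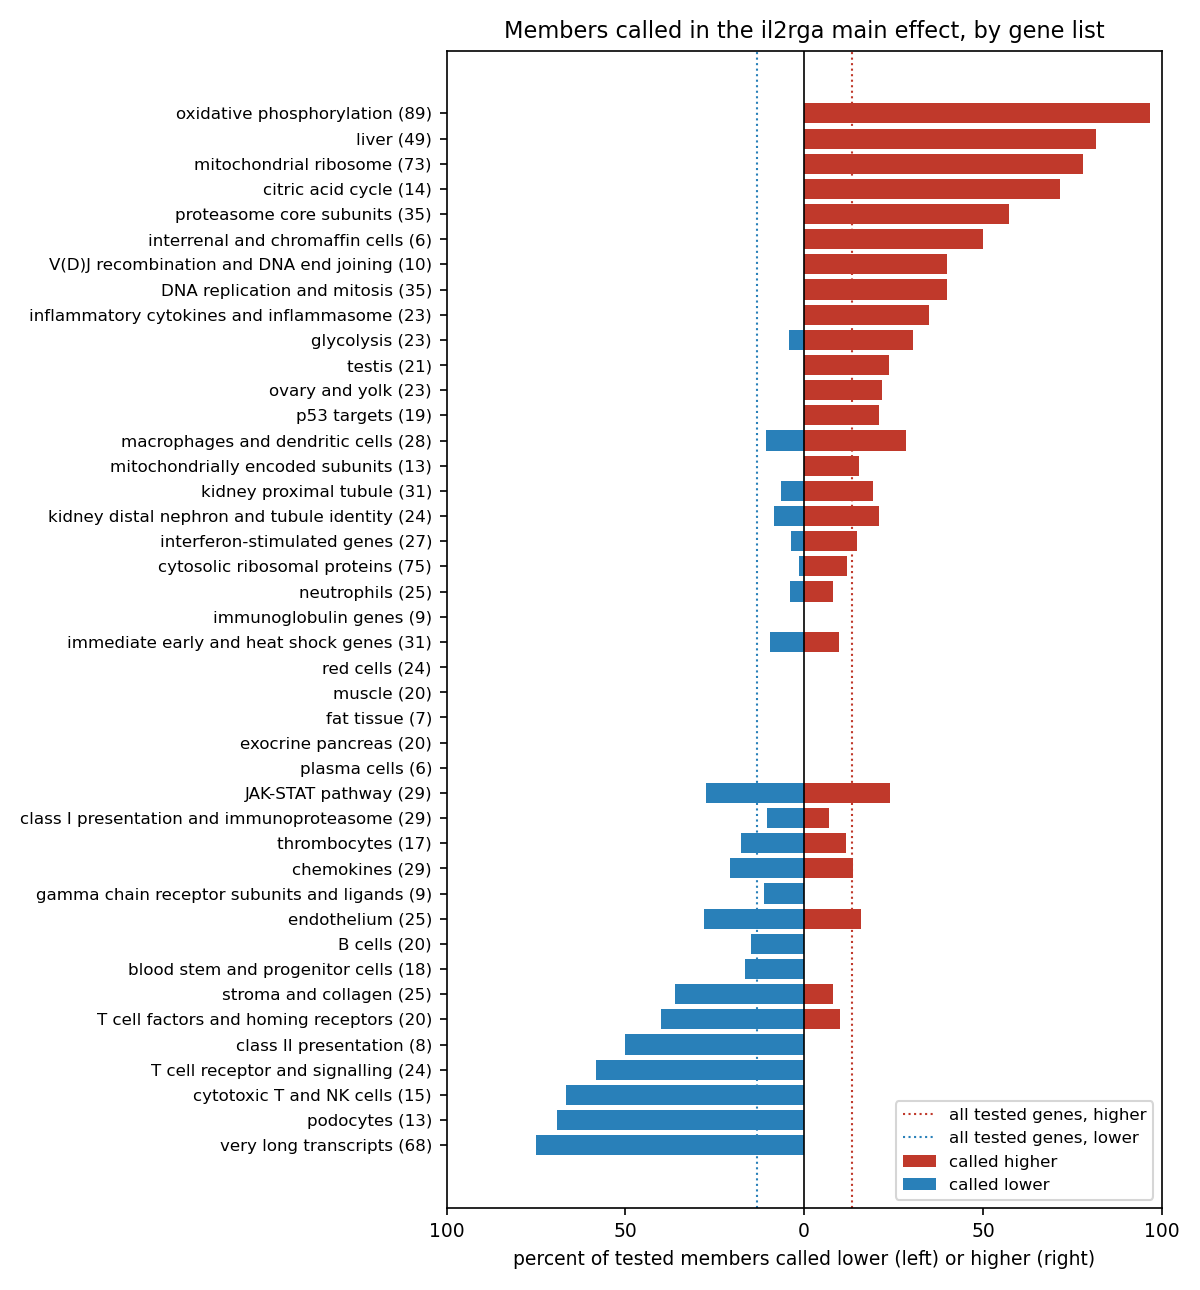
Percent of the tested members of each gene list called higher (right, red) or lower (left, blue) in the il2rga main effect, with the number of tested members in brackets and the shares over all 18370 genes as dotted lines. Oxidative phosphorylation lies at the top with 86 of 89 members higher and the very long transcripts at the bottom with 51 of 68 lower.

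The mutation was present in both prkdc backgrounds, which gave 2 comparisons with no library in common. Fitted on their own 6 libraries, il2rga mutants against wild type gave 942 calls (5.49%, with 2.02% higher and 3.46% lower) and double mutants against prkdc mutants gave 236 (1.38%, with 0.55% higher and 0.831% lower). Over 16580 genes tested in both, the log2 fold changes had a Spearman rho of 0.628 and a Pearson r of 0.625, and 74.6% had the same sign. Genes are not independent replicates, and the comparisons share the liver and long-transcript differences described above. Of 573 genes called lower in il2rga mutants, 558 (97.4%) were also lower in double mutants and 429 (74.9%) had an unadjusted p under 0.05 there, against 13.1% of all genes. Of 335 called higher, 314 (93.7%) were also higher and 211 (63.0%) had such a p, against 14.1% of all genes. In the other direction, 121 of 140 genes called lower in double mutants (86.4%) and 44 of 70 called higher (62.9%) had a p under 0.05 and the same sign in il2rga mutants, against 13.4% and 11.9% of all genes. The counts of calls changed widely when 1 library was left out, which also leaves fewer libraries to test. For il2rga mutants against wild type they were 230, 1 and 1105 without il2rga mutant 1, 2 and 3, and 50, 1 and 2 without wild type 1, 2 and 3. For double against prkdc mutants they were 1, 0 and 1446 without double mutant 1, 2 and 3, and 1, 0 and 0 without prkdc mutant 1, 2 and 3.

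The interaction asks whether the il2rga effect differed between the backgrounds. edgeR called 0 of 18370 genes (0.0%), with a smallest adjusted p of 0.788 and 1123 genes at an unadjusted p under 0.05, while the DESeq2 Wald test called 49 (0.267%). Of the 4837 genes called in the main effect, 4836 had the same sign in both backgrounds in the fit on 12 libraries. These genes were chosen by their effect over the same 12 libraries, which largely fixed this count. It therefore cannot tell whether the effect differed between the backgrounds. In simulated data of this size the interaction test recovered 68 of 100 genes with a true log2 difference of 3 and 9 of 100 with one of 1.5. Smaller differences would thus mostly not be called. The simulation held no liver or long-transcript difference between libraries, so its rates need not hold for the real data.

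**Figure D2:**
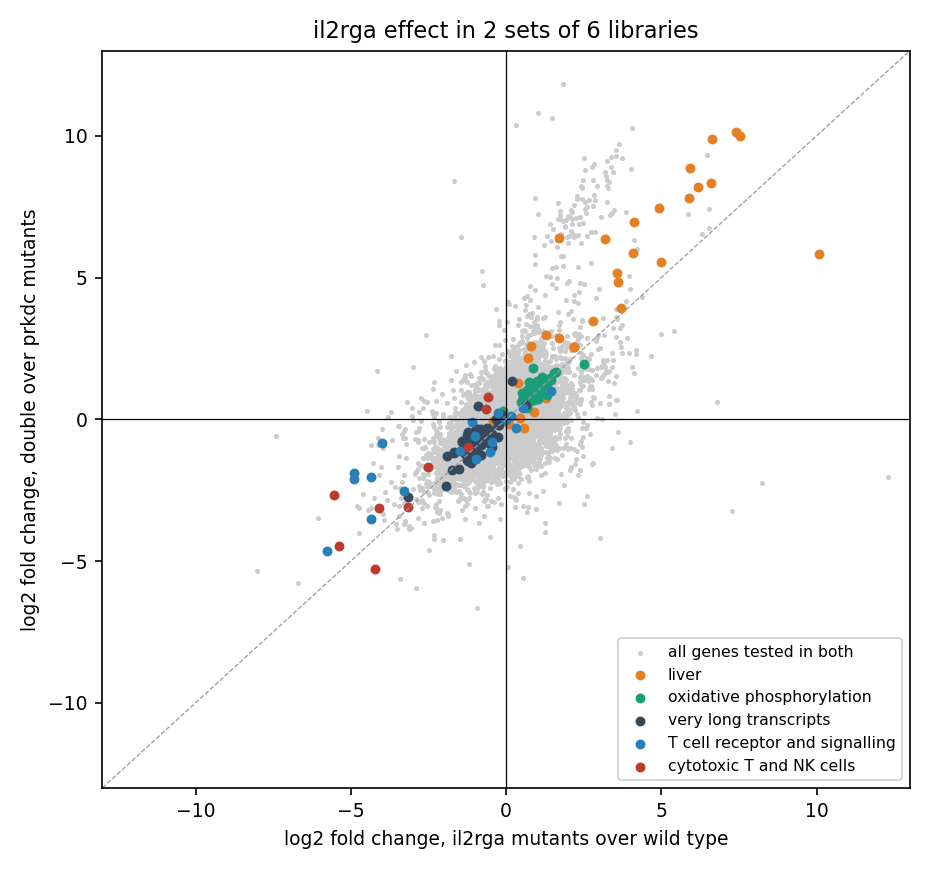
Log2 fold change of each of 16580 genes in il2rga mutants over wild type (horizontal) and in double over prkdc mutants (vertical), each from its own 6 libraries, with 5 gene lists in colour and the line of equal change dashed. Oxidative phosphorylation genes lie close to the line at upper right, and several T cell genes have lower values against wild type than against prkdc mutants.

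Nuclear genes of oxidative phosphorylation, the mitochondrial respiratory chain and ATP synthase, rose together. Of 89 tested members 86 rose and 0 fell, beside 13.2% and 13.1% of all genes, and the same 86 had all 6 libraries with the mutation above all 6 without it, beside 4.65% of all genes. The median log2 fold change was 0.95, with the middle of the list between 0.83 and 1.07 (quartiles), and 88 of 89 were higher in both backgrounds. The mean level of the list was 7.16 to 7.37 log2 CPM in libraries with the mutation and 6.06 to 6.40 without it. In il2rga mutant 3, whose liver genes lay among the libraries without the mutation, it was 7.19. Without the 4 liver-rich libraries 74 members were called higher, and 36 with the liver covariate, all of these 36 called in all 3 fits.

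The rise ran through every complex, with genes assigned by their symbols. This counts NDUFA4 and ndufa4b under complex I, although NDUFA4 is now known as a subunit of complex IV. In complex I, NADH dehydrogenase, 37 of 38 genes rose (median 0.96). All 4 genes of complex II rose, and so did all 9 of complex III. In complex IV, cytochrome c oxidase, 16 of 18 rose (median 1.06), and in complex V, ATP synthase, 20 of 20 (median 0.89). The 3 members that did not pass were ndufa9b (1.31 ± 0.69, adjusted p = 0.176), the alternative subunit cox4i2 (0.09 ± 0.26, adjusted p = 0.814) and 1 of 2 genes named cox6a1 (ENSDARG00000054588, 0.54 ± 0.19, adjusted p = 0.0547). The other cox6a1 gene rose by 1.4 ± 0.13 (adjusted p = 7.59e-05). These members were chosen after their values were seen.

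Single subunits differed by far more than their spread. The ATP synthase ring subunit atp5mc1 had a lowest, median and highest level of 431, 492 and 610 CPM with the mutation, against 142, 185 and 216 CPM without it. It rose by 1.43 ± 0.13 (adjusted p = 7.17e-05). The complex I subunit ndufb6 had 74.0, 79.9 and 92.9 CPM with the mutation and 29.99, 35.8 and 38.1 CPM without it, a rise of 1.23 ± 0.11 (adjusted p = 7.17e-05). In both genes the lowest library with the mutation stood well above the highest without it. Among genes with a named symbol, a mean of at least 1 CPM and no overlap, the 5 rises with the smallest p were COX5B, ndufb6, atp5mj, atp5mc1 and ndufs7, and each encodes a subunit of this system. The largest rise in the list was that of ndufa4b, chosen after its values were seen, at 77.9 to 200.1 CPM with the mutation and 21.95 to 43.3 CPM without it (2.22 ± 0.25, adjusted p = 0.000203).

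**Figure D3:**
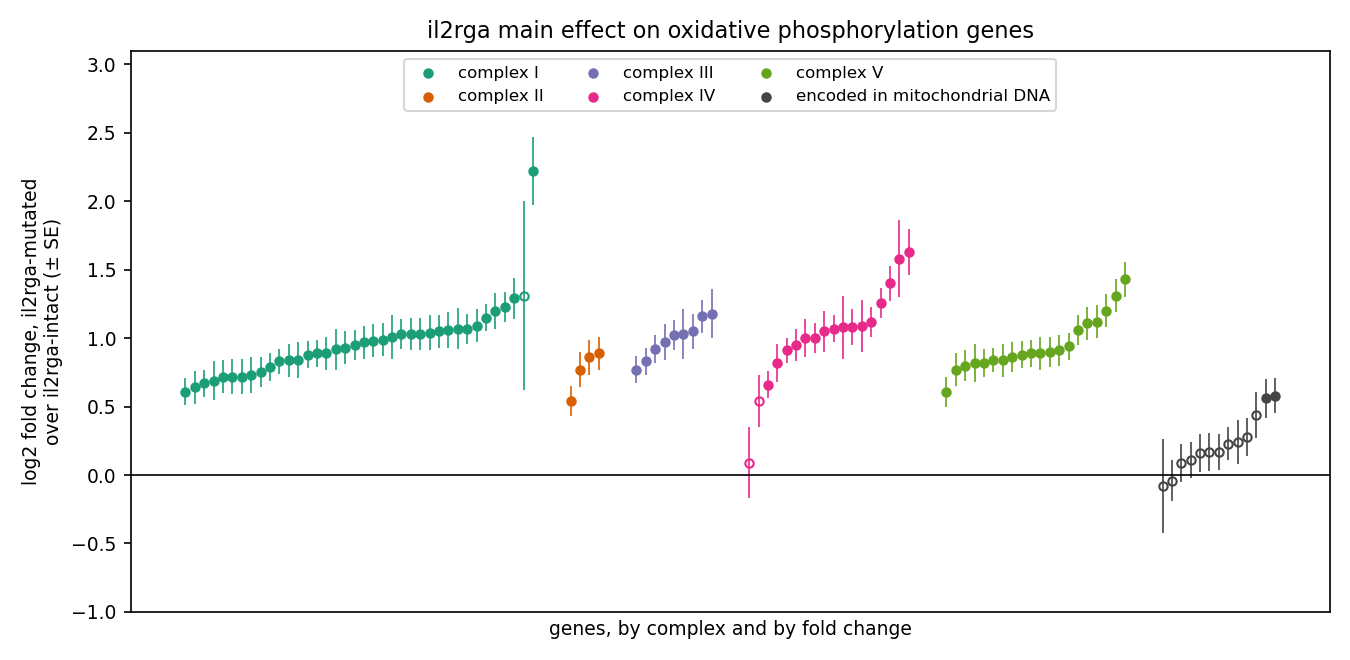
Log2 fold change with its standard error, libraries with the il2rga mutation over those without it. Shown are 89 nuclear oxidative phosphorylation genes by complex, as assigned by symbol, and 13 genes of the mitochondrial genome. Filled points passed the test. The nuclear genes lie between 0.09 and 2.22 and the mitochondrial genes between -0.08 and 0.58.

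The 13 subunits encoded in mitochondrial DNA are a list added after the data were seen. Of these, 2 rose and 0 fell, beside 13.2% and 13.1% of all genes, so the share of rises was near that of all genes. The 2 were mt-atp8 (0.56 ± 0.14, adjusted p = 0.0126) and MT-ATP6 (0.58 ± 0.13, adjusted p = 0.00884), which encode ATP synthase subunits. The median of the list was 0.17. Without the 4 liver-rich libraries 2 were called higher (median 0.41), beside 3.66% of all genes. With the liver covariate 1 was (median 0.55), beside 0.653% of all genes. The nuclear list had medians of 0.88 and 0.87 in these fits. The mean level was 9.78 to 10.41 log2 CPM with the mutation and 9.56 to 10.1 without it, which overlap. Other nuclear genes of mitochondria were also higher. Of 73 mitochondrial ribosome genes 57 rose and 0 fell (median 0.69), and of 14 citric acid cycle genes 10 rose and 0 fell (median 0.65), beside 13.2% and 13.1% of all genes. Both lists were added after the data were seen. Calls came to 35 and 4 without the 4 liver-rich libraries, with medians of 0.83 and 0.52, and to 3 and 1 with the liver covariate, with medians of 0.81 and 0.57. The citric acid cycle enzyme suclg1, succinyl-CoA ligase, had 289, 337 and 399 CPM as its lowest, median and highest level with the mutation, against 154, 169 and 191 CPM without it. It rose by 0.99 ± 0.11 (adjusted p = 0.000239) with no overlap. Of 23 glycolysis genes, also listed after the data were seen, 7 rose and 1 fell (median 0.42), beside 13.2% and 13.1% of all genes.

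Proteasome and ribosomal protein genes were also counted. Of 35 core proteasome subunits, which degrade proteins, 20 rose and 0 fell (median 0.43), beside 13.2% and 13.1% of all genes. Without the 4 liver-rich libraries 20 were called higher (median 0.71), beside 3.66% of all genes. With the liver covariate 3 were (median 0.72), beside 0.653% of all genes. Of 75 cytosolic ribosomal proteins 9 rose and 1 fell (median 0.27), shares near or below those of all genes. Without the 4 libraries 54 of them were called higher (median 0.55), beside 3.66% of all genes, and with the liver covariate 0 (median 0.54). The 68 very long transcripts have unrelated functions and were listed with their falls known. Of these, 51 fell and 0 rose (median -0.87), beside 13.1% and 13.2% of all genes, and 65 were below 0. Among the falls was ahnak, which encodes a giant scaffold protein, with 144, 161 and 290 CPM as lowest, median and highest level with the mutation against 483, 564 and 1040 CPM without it. It fell by 1.78 ± 0.20 (adjusted p = 0.000229). One gene named KMT2C (ENSDARG00000079312), a histone methyltransferase, fell by 1.28 ± 0.12 (adjusted p = 9.31e-05), with 42.0 to 61.1 CPM against 111.6 to 136.0 CPM. The deposited table gives no transcript length, and RNA length or integrity was not measured here.

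**Figure D4:**
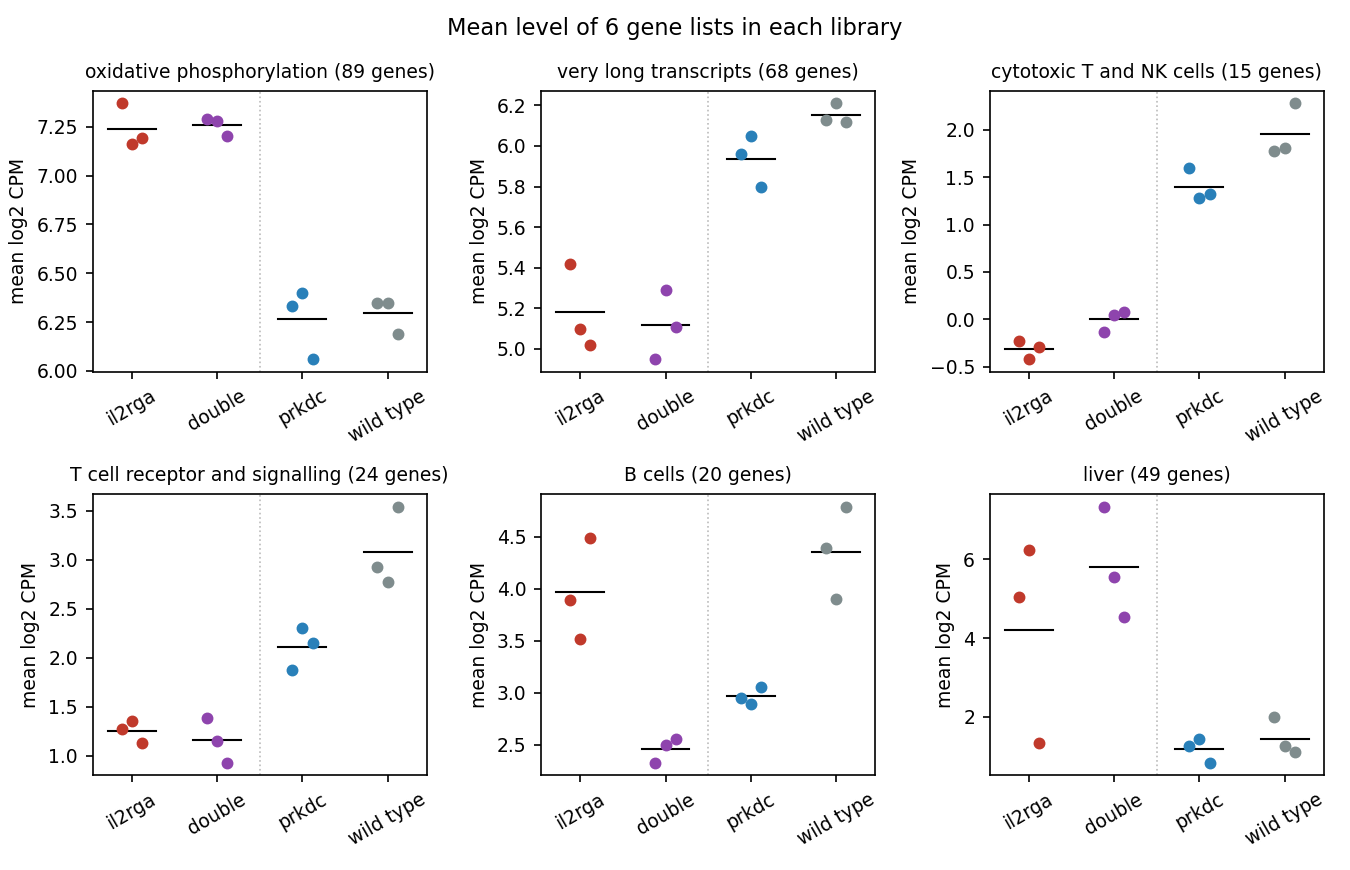
Mean log2 CPM of 6 gene lists in each library, by genotype, with the mean of 3 libraries as a bar and the dotted line between libraries with and without the il2rga mutation. The sets do not overlap for oxidative phosphorylation, very long transcripts, cytotoxic cells and T cell signalling, whereas B cell genes are low in both groups with the prkdc mutation and liver genes vary between libraries with the il2rga mutation.

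Genes of T cell receptor signalling fell. Of 24 tested members 14 fell and 0 rose, beside 13.1% and 13.2% of all genes, and 8 did not overlap between the groups, beside 6.74%. The median log2 fold change was -1.02. The mean level was 0.93 to 1.39 log2 CPM with the mutation and 1.88 to 3.54 without it. Without the 4 liver-rich libraries 8 members were called lower (median -1.41) and with the liver covariate 2, themis and itk (median -1.56). trbc1, the constant part of the T cell receptor beta chain, had a lowest, median and highest level of 0, 0.105 and 0.320 CPM with the mutation, against 2.40, 5.67 and 19.6 CPM without it. It fell by 5.31 ± 0.62 (adjusted p = 0.000247). The kinase txk had 0.114, 0.257 and 0.420 CPM with the mutation and 2.52, 3.59 and 8.93 CPM without it, a fall of 3.93 ± 0.39 (adjusted p = 0.00013). The 2 groups of 6 did not overlap in either gene, and 3 of the 6 libraries with the mutation had no trbc1 count. The signalling kinase lck fell by 2.92 ± 0.49 (adjusted p = 0.00184) and themis, needed for thymocyte development in mice, by 3.87 ± 0.59 (adjusted p = 0.00112). Near 0 with the mutation, trbc1, txk and themis passed the filter through the libraries without it, so their direction was fixed by that choice. The same largely held for lck, which had 0.2 to 2.03 CPM with the mutation. The counts and median of the list describe its tested members only. Of 20 T cell transcription factors and homing receptors 8 fell and 2 rose (median -0.67), beside 13.1% and 13.2% of all genes. Among the falls were tox (-1.75 ± 0.33, adjusted p = 0.00358) and runx3 (-1.27 ± 0.27, adjusted p = 0.00631). Without the 4 liver-rich libraries 3 of the 20 were called lower (median -0.87), and with the liver covariate 0 (median -1.03). tox passed in neither of these fits, and runx3 only without the 4 libraries.

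Some T cell genes also had low levels in prkdc mutants. A receptor for the homing of T cells to lymphoid tissue, ccr7, had 0.210, 0.641 and 0.426 CPM in il2rga mutants and 0.341, 0.600 and 0.153 CPM in double mutants, against 0.801, 1.09 and 0.720 CPM in prkdc mutants and 14.8, 8.89 and 19.7 CPM in wild type. Wild type stood far above the other 3 groups, and prkdc mutants only just above both groups with the il2rga mutation. ccr7 fell by 3.24 ± 0.70 over both backgrounds (adjusted p = 0.0065), with -4.95 against wild type and -1.16 against prkdc mutants. The difference between these, 3.78 ± 0.78, did not pass adjustment over all genes (unadjusted p = 0.000478, adjusted p = 0.788). ccr7 passed the filter through the wild type libraries only, so its direction and the larger fall against wild type were fixed by that choice. The same pattern was seen in genes chosen after their values were seen, the adaptor lat (-4.91 against wild type and -1.90 against prkdc mutants, interaction unadjusted p = 0.00462), the kinase itk (-4.93 and -2.13, unadjusted p = 0.0194) and the granzyme gzma (-4.43 and -0.49, unadjusted p = 0.000236). All 3 had an adjusted interaction p of 0.788.

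As a list, cytotoxic T and NK cell genes fell in both backgrounds, with a median of -4.11 against wild type and -2.68 against prkdc mutants. This did not hold for each member, and gzma, given above, fell mainly against wild type. Of 15 tested members 10 fell and 0 rose, all 10 with no overlap, and the median was -3.14, beside 13.1% lower and 13.2% higher among all genes and 6.74% with all 6 libraries below all 6. The mean level was -0.42 to 0.08 log2 CPM with the mutation and 1.28 to 2.28 without it. Of the 42 genes of the list found in the table, these 15 had enough counts to be tested. Members near 0 with the mutation, such as prf1.9, nkl.2 and nitr2b, passed the filter through the libraries without it, so their direction was fixed by that choice and the count and median describe the tested members only. Of the 15, 7 were called lower without the 4 liver-rich libraries (median -2.27) and with the liver covariate 1 (median -2.48). The perforin prf1.9, which forms pores in target cells, had 0, 0.157 and 0.420 CPM as its lowest, median and highest level with the mutation, against 2.19, 4.63 and 6.18 CPM without it. It fell by 4.80 ± 0.58 (adjusted p = 0.000284), with -4.21 against wild type and -5.31 against prkdc mutants. The NK-lysin nkl.2, an antimicrobial granule protein, had 0, 0.126 and 0.227 CPM with the mutation and 2.16, 4.33 and 6.67 CPM without it. It fell by 4.88 ± 0.53 (adjusted p = 0.000192) and was the 1 member of the list called in all 3 fits. In neither gene did prkdc status make a difference that passed the test, with prkdc terms of 0.31 ± 0.53 for prf1.9 (adjusted p = 0.892) and -0.11 ± 0.49 for nkl.2 (adjusted p = 0.963). The factor tbx21, which directs cytotoxic cells, fell by 3.14 ± 0.37 (adjusted p = 0.000257). It passed without the 4 liver-rich libraries (-2.76, adjusted p = 0.0212) but not with the liver covariate (-2.48, adjusted p = 0.107). tbx21 also passed the filter through the libraries without the mutation, so its direction was largely fixed by that choice. The immune receptor nitr2b had 1 count over the 6 libraries with the mutation and 85 over the 6 without it, a ratio of 69.6 lower (95% interval 12.2 to 2782, which covers counting error only). Most of these counts came from wild type, with 1.97, 2.44 and 4.2 CPM against 0.115, 0.218 and 0.36 CPM in prkdc mutants, and its prkdc term was also called lower (-3.44, adjusted p = 0.0415).

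**Figure D5:**
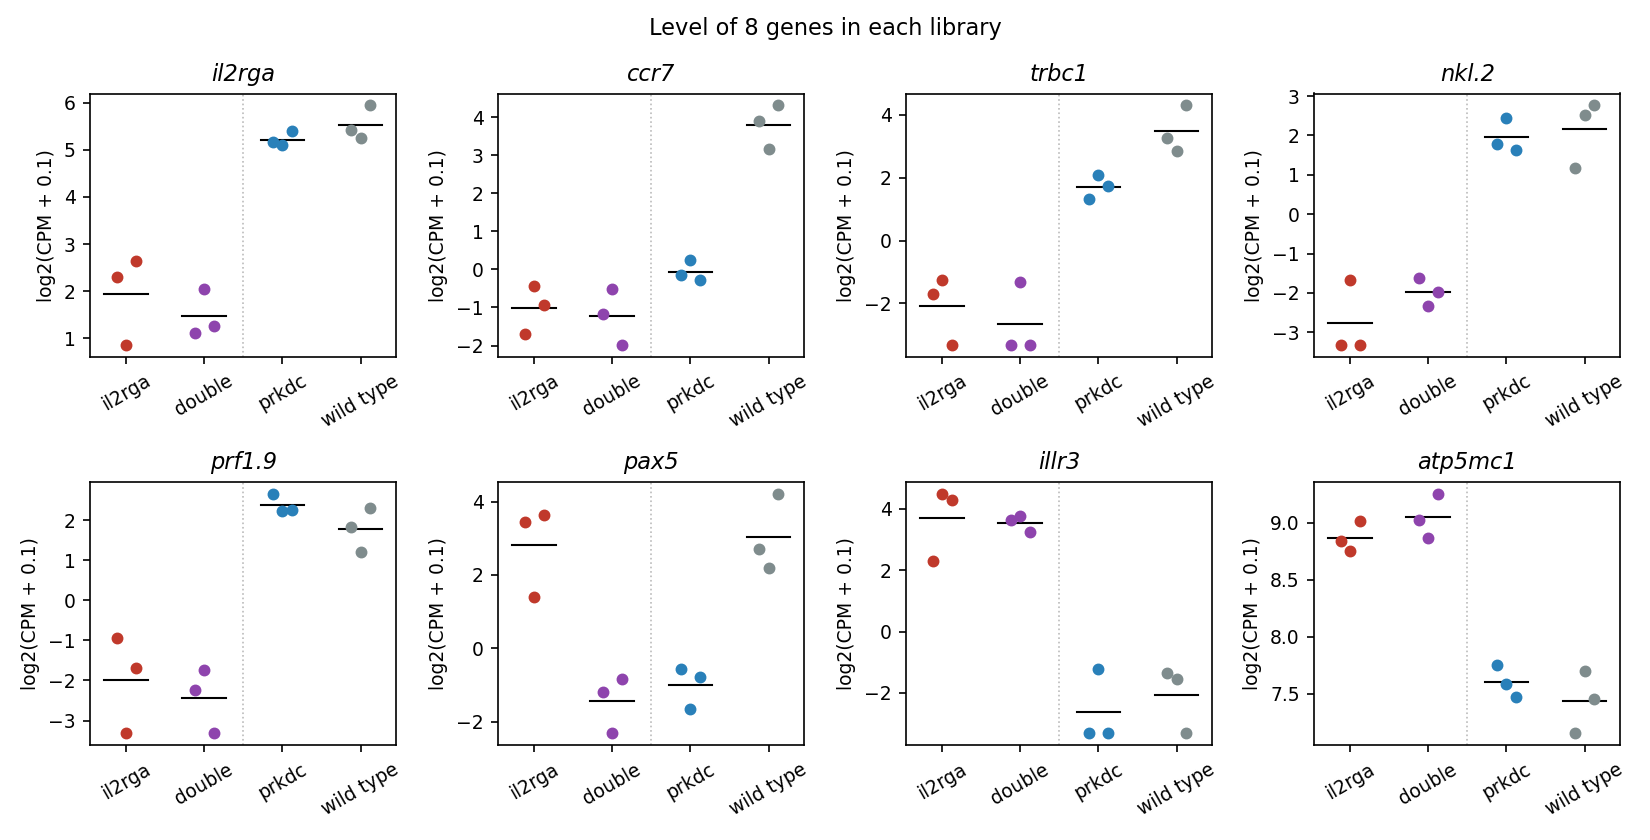
Level of 8 genes in each library as log2(CPM + 0.1), by genotype, with the mean of the plotted values as a bar and a dotted line between libraries with and without the il2rga mutation. The genes il2rga, prf1.9, nkl.2, illr3 and atp5mc1 separate by il2rga status alone, pax5 by prkdc status, and ccr7 is high in wild type only.

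Several chemokines, secreted guides of cell migration, fell as well. cxcl32b.1 had 1 count over the 6 libraries with the mutation and 172 over the 6 without it, a ratio of 141 lower (95% interval 24.96 to 5598). ccl34b.4 had 0, 0.256 and 0.796 CPM as its lowest, median and highest level with the mutation against 3.66, 6.80 and 25.6 CPM without it, with no overlap, and fell by 4.65 ± 0.65 (adjusted p = 0.000662). Both cxcl32b.1 and ccl34b.4 passed the filter through the libraries without the mutation, so their direction was fixed by that choice. ccl34a.4 was higher with the mutation, with 4.21 to 16.8 CPM against 0.197 to 3.48 CPM, and rose by 3.22 ± 0.52 (adjusted p = 0.00153). It passed the filter through the libraries with the mutation, so its direction was largely fixed by that choice. Of 29 chemokines tested 4 rose and 6 fell, beside 13.2% and 13.1% of all genes. The cells that make these chemokines in zebrafish were not identified here.

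Of 9 tested receptor subunits and ligands 1 fell and 0 rose, beside 13.1% and 13.2% of all genes, so the share of falls was near that of all genes. The 1 was il2rb, the chain that joins the gamma chain in the receptors for interleukins 2 and 15 in mammals. il2rb had 3.83, 6.37 and 10.29 CPM as its lowest, median and highest level with the mutation, against 15.6, 24.1 and 60.2 CPM without it, and fell by 2.11 ± 0.34 (adjusted p = 0.00159) with no overlap. It did not pass without the 4 liver-rich libraries (-2.25, adjusted p = 0.0618) or with the liver covariate (-2.33, adjusted p = 0.137). The interleukin 7 receptor chain il7r had a log2 fold change of -1.38 ± 0.60 (adjusted p = 0.102), which was -3.20 and passed without the 4 libraries (adjusted p = 0.0307) and was -3.57 with the liver covariate (adjusted p = 0.0858). The second zebrafish gamma chain gene, il2rgb, had one of -0.23 ± 0.41 (adjusted p = 0.70). The ligands il15 and il7 had 0.06 ± 0.19 (adjusted p = 0.842) and 0.43 ± 0.32 (adjusted p = 0.327). Of 29 JAK-STAT genes 7 rose and 8 fell, beside 13.2% and 13.1% of all genes. The kinase jak3, which binds the gamma chain in mammals, had -0.18 ± 0.18 (adjusted p = 0.491) and jak1 had -0.37 ± 0.18 (adjusted p = 0.139). stat5b, a factor these receptors activate, had 10.5 to 23.7 CPM with the mutation and 26.9 to 31.2 CPM without it, and fell by 0.88 ± 0.19 (adjusted p = 0.00602), while stat5a had -0.54 ± 0.29 (adjusted p = 0.184). Without the 4 libraries both were called lower, stat5b at -1.29 (adjusted p = 0.0158) and stat5a at -1.44 (adjusted p = 0.0292), and with the liver covariate neither was, at -1.15 and -1.30 (adjusted p = 0.113 and 0.216). JAK2 fell by 0.73 ± 0.13 (adjusted p = 0.00213) and mcl1a, a survival factor, rose by 0.97 ± 0.18 (adjusted p = 0.00269). JAK2 lost its call in both other fits (-0.51 and -0.43, adjusted p = 0.098 and 0.262) and mcl1a with the liver covariate (0.79, adjusted p = 0.166). The receptor subunits other than il2rb, the ligands, jak1, jak3, stat5a and stat5b were chosen after their values were seen.

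Of 20 B cell genes 3 fell and 0 rose in the il2rga main effect (median -0.41), beside 13.1% and 13.2% of all genes, and of 9 immunoglobulin genes 0 were called by edgeR (median 0.41). The B cell factor pax5, chosen after its values were seen, had 10.7, 2.56 and 12.3 CPM in il2rga mutants and 0.341, 0.10 and 0.458 CPM in double mutants, against 0.572, 0.218 and 0.480 CPM in prkdc mutants and 6.39, 4.51 and 18.4 CPM in wild type. It was low in both groups with the prkdc mutation and high in both without it. Its il2rga term was -0.32 ± 0.51 (adjusted p = 0.672), and its prkdc term was a fall of 4.64 ± 0.56 (adjusted p = 0.0119). The prkdc term had 30 calls in all (0.163%), all of them lower. The 3 B cell genes that fell with il2rga status were plcg2 (-0.67 ± 0.10, adjusted p = 0.00119), an EBF1 gene (-1.49 ± 0.30, adjusted p = 0.00493) and BACH2 (-0.96 ± 0.29, adjusted p = 0.0312). Of these, plcg2 passed without the 4 libraries (-0.75, adjusted p = 0.0295), and none passed with the liver covariate. The heavy chain ighm had 123, 48.8 and 591 CPM in il2rga mutants and 5.796, 11 and 8.71 CPM in double mutants, against 12.7, 12.6 and 18.7 CPM in prkdc mutants and 53.4, 97.8 and 113 CPM in wild type, and its il2rga term was 0.41 ± 0.64 (adjusted p = 0.657). That term was 1.57 without the 4 liver-rich libraries (adjusted p = 0.179) and 2.52 with the liver covariate, where ighm was called higher (adjusted p = 0.0304). Of 10 genes of receptor gene recombination and end joining 4 rose and 0 fell, beside 13.2% and 13.1% of all genes. The 4 were xrcc4 (0.86 ± 0.20, adjusted p = 0.0105), nhej1 (0.65 ± 0.20, adjusted p = 0.033) and the Ku subunits xrcc6 (0.41 ± 0.14, adjusted p = 0.0426) and xrcc5 (0.49 ± 0.17, adjusted p = 0.048). Of these, only nhej1 passed without the 4 liver-rich libraries (0.90, adjusted p = 0.0492), and none passed with the liver covariate.

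Of 25 neutrophil genes 2 rose and 1 fell (median 0.03), below the 13.2% and 13.1% of all genes. Of 28 macrophage and dendritic cell genes 8 rose and 3 fell (median 0.26), beside the same shares. The receptor flt3, which in mammals supports dendritic cells and progenitors, had 1.59, 4.28 and 7.90 CPM as its lowest, median and highest level with the mutation against 15.9, 18.6 and 23.1 CPM without it. It fell by 2.11 ± 0.32 (adjusted p = 0.000979) with no overlap, and did not pass with the liver covariate (-1.85, adjusted p = 0.177). Of 8 class II presentation genes 4 fell (median -1.10), beside 13.1% of all genes, among them the invariant chain cd74a (-1.47 ± 0.34, adjusted p = 0.00945) and its regulator ciita (-1.25 ± 0.31, adjusted p = 0.0126). Without the 4 liver-rich libraries 0 of the 8 were called (median -0.55), and il2rga mutant 3 held 851 CPM of cd74a, inside the 653 to 1088 CPM of libraries without the mutation. Of 23 inflammatory cytokine and inflammasome genes 8 rose and 0 fell (median 0.74), beside 13.2% and 13.1% of all genes, among them il11a (4.77 ± 0.83, adjusted p = 0.00214), the caspase caspb (3.39 ± 0.79, adjusted p = 0.0101) and the adaptor pycard (1.05 ± 0.24, adjusted p = 0.00888). None of these 23 was called without the 4 libraries, which leave 2 libraries with the mutation (median 0.57), and 1 was with the liver covariate (median 0.77). In double mutant 3 il11a stood at 0.153 CPM, inside the 0 to 0.229 CPM of libraries without the mutation, while the other 5 with it had 2.13 to 3.99 CPM. As il11a passed the filter through the libraries with the mutation, its direction was fixed by that choice.

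Liver genes made up most of the largest rises. Of 49 tested liver genes 40 rose and 0 fell (median 5.27), beside 13.2% and 13.1% of all genes. In 7 of the 49, all 6 libraries with the mutation lay above all 6 without it, beside 4.65% of all genes. In il2rga mutant 3 the liver mean was as low as in libraries without the mutation. Without the 4 liver-rich libraries 4 liver genes were called higher (median 3.12), beside 3.66% of all genes. Double mutant 3, kept in that fit, had a liver mean of 4.53 log2 CPM, so the fit was not free of liver RNA. With the liver covariate, which is the mean of this list, 0 were called (median 0.12). Of the 10 largest rises named by rule, the complement genes c9, c8b and c3a.1, the fibrinogen chain fgb, serpina7 and the hepatic lipase LIPC are known from liver. c9 had 1.92, 55.6 and 315 CPM as its lowest, median and highest level with the mutation against 0.109, 0.424 and 1.08 CPM without it, and rose by 7.42 ± 1.11 (adjusted p = 0.00128). Its lowest library was il2rga mutant 3 and its highest double mutant 1. For c8b, with 419 counts over the 6 libraries with the mutation and 3 over the 6 without it, the ratio was 171 (95% interval 57.9 to 830). The genes c9, c8b, serpina7 and LIPC passed the filter through the libraries with the mutation, so their direction was fixed by that choice. The count and median of the liver list include such members and describe its tested members only. Ovary and yolk genes had a median of 4.46 with 5 of 23 called higher, beside 13.2% of all genes, and a median of -0.90 with 0 called without the 4 libraries. Exocrine pancreas and muscle lists had 0 of 20 members called each, beside 26.3% of all genes called either way.

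Of 31 proximal tubule genes 6 rose and 2 fell, and of 24 distal nephron genes 5 rose and 2 fell, beside 13.2% and 13.1% of all genes. The calls without the 4 liver-rich libraries were 0 and 0 for the proximal list and 1 and 1 for the distal list. The sodium chloride transporter slc12a3 had 500, 1007 and 1043 CPM as its lowest, median and highest level with the mutation against 189, 277 and 394 CPM without it, and rose by 1.63 ± 0.25 (adjusted p = 0.00109) with no overlap. It did not pass without the 4 libraries (1.00, adjusted p = 0.0736) or with the liver covariate (0.90, adjusted p = 0.18). Of 13 podocyte genes 9 fell and 0 rose (median -0.83), beside 13.1% and 13.2% of all genes, among them nephrin, nphs1 (-0.83 ± 0.22, adjusted p = 0.0181), and plce1 (-0.97 ± 0.16, adjusted p = 0.00154). Without the 4 libraries 2 were called lower (median -0.69), nphs1 and plce1, and with the liver covariate 0 (median -0.67), while with the long-transcript covariate nphs1 had a value of 1.06. Of 25 endothelial genes 4 rose and 7 fell, beside 13.2% and 13.1% of all genes. The vascular growth factor receptor kdr had 33.3, 47.4 and 60.7 CPM with the mutation and 137, 190 and 204 CPM without it, and fell by 1.95 ± 0.18 (adjusted p = 7.59e-05), a call made in all 3 fits. The vessel cadherin cdh5 fell by 0.92 ± 0.17 (adjusted p = 0.00337), whereas the claudin gene CLDN5 rose by 1.66 ± 0.33 (adjusted p = 0.00427). Neither cdh5 (-0.74 and -0.71) nor CLDN5 (1.205 and 1.22) passed in the other 2 fits.

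Among genes with a named symbol, a mean of at least 1 CPM and no overlap, the 5 falls with the smallest p were hipk3a, a JARID2 gene (ENSDARG00000062268), ythdc2, snx6 and adpgk2, and all 5 were called in all 3 fits. The kinase gene hipk3a had a lowest, median and highest level of 54.9, 64.0 and 78.2 CPM with the mutation, against 204, 208 and 274 CPM without it, and fell by 1.75 ± 0.12 (adjusted p = 5.83e-05). JARID2, a cofactor of the Polycomb complex in mammals, had 0.909, 1.75 and 3.19 CPM with the mutation and 17.3, 22.7 and 32.7 CPM without it, and fell by 3.70 ± 0.28 (adjusted p = 5.83e-05). The sorting nexin snx6, which acts in endosomes, had 3.31, 5.02 and 7.18 CPM with the mutation and 34.4, 43.7 and 63.9 CPM without it, and fell by 3.11 ± 0.24 (adjusted p = 5.83e-05). No library crossed between the groups in any of these 3 genes, and prkdc status had no called effect on them. The symbol JARID2 is shared by paralogues in the reference table, so this gene is identified by its ID. Among the largest falls zbtb32, a zinc finger repressor in lymphocytes, fell by 3.74 ± 0.36 (adjusted p = 0.000119), with 0.210 to 0.796 CPM against 3.84 to 9.26 CPM. It passed the filter through the libraries without the mutation, so its direction was fixed by that choice.

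Some genes were near absent from 1 side. The C-type lectin-like receptor illr3 had 4.83, 12.99 and 22.3 CPM as its lowest, median and highest level with the mutation, against 0, 0.122 and 0.327 CPM without it. It rose by 6.41 ± 0.66 (adjusted p = 0.000153) and was called in all 3 fits, with 19.6 CPM in il2rga mutant 3. As illr3 passed the filter through the libraries with the mutation, its direction was fixed by that choice. The class I gene mhc1uba had 295, 366 and 649 CPM in il2rga mutants and 335, 763 and 2.90 CPM in double mutants, against 3.09, 4.26 and 2.88 CPM in prkdc mutants and 5.61, 3.90 and 4.41 CPM in wild type. Double mutant 3 lay with the libraries without the mutation and the other 5 with it near or above 300 CPM. The rise was 6.65 ± 0.95 (adjusted p = 0.000988), and mhc1uba had 5.49 without the 4 liver-rich libraries (adjusted p = 0.057) and 6.79 with the liver covariate, where it was called (adjusted p = 0.039). Another gene with such a split was an RRM2 gene (ENSDARG00000078069), a ribonucleotide reductase subunit, with 0, 34.6 and 60.4 CPM in il2rga mutants and 102, 35.2 and 0.764 CPM in double mutants, against at most 0.487 CPM in the 6 libraries without the mutation. This RRM2 gene passed the filter through the libraries with the mutation, so its direction was fixed by that choice. Strain background and alleles that map poorly to the reference genome were not tested for these genes.

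Genes near il2rga on chromosome 10 were called about as often as others. Gene order was taken from RefSeq on the GRCz12tu assembly, which is not the GRCz10 build of the counts, so no coordinates are given. Of 22 tested genes within 25 gene places on either side, 7 were called (31.8%), 4 higher and 3 lower, beside 26.9% of 12812 placed genes. None of the 22 was called in all 3 fits, beside 1.08% of placed genes, but 22 genes are too few to differ from that share. The strongest of the 22 was mdh2, a malate dehydrogenase of the citric acid cycle, which rose by 0.72 ± 0.10 (adjusted p = 0.000709). Over all of chromosome 10, 136 of 433 tested genes were called (31.4%), 9 of them in all 3 fits (2.08%). Across chromosomes these shares ran from 21.8% to 31.9% and from 0.357% to 2.14%.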

How the data were processed

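The authors deposited raw counts of each Ensembl gene for 12 libraries of zebrafish whole kidney marrow. Per the submitters' processing notes, the authors made these counts with STAR, Picard and featureCounts on GRCz10, with versions and strand setting not given in the sources used here. Per the labels' protocols the library kit was directional.

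Of 32105 identifiers, 26269 matched a symbol, and 4292 carry a symbol that another identifier also carries. After filterByExpr, which left 18370 genes, and TMM scaling, edgeR (version 4.0.16, R 4.3.3) was used to fit prkdc status plus il2rga status (glmQLFit, robust, glmQLFTest, 2-sided), with Benjamini-Hochberg adjustment over all genes at 0.05. The prior count of log2 CPM was 2 and the common biological coefficient of variation 0.431. On simulated data the test recovered 96 of 100 changes of log2 3 and 76 of 100 of log2 1.5, with 10 false calls among 18076 genes.

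Gene lists, naming rules and the comparison were chosen with earlier results of these data known, and lists were counted, not tested. Genes named are the targets, the 10 largest changes and 5 smallest p each way (mean of at least 1 CPM, no overlap, named symbol) and up to 4 called members per list. Others are marked as chosen after their values were seen. Ratios for genes with 1 to 3 counts on one side come from pooled counts with a 95% interval.

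Alternatives were DESeq2 size factors, other filters, the DESeq2 1.42.0 Wald test, limma 3.58.1 voom with quality weights, 4 group means, il2rga status alone, a replicate block, liver and long-transcript covariates, removal of liver and ovary genes, and leaving out libraries.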

Additional observations from a re-analysis of the deposited data

How the results depend on the processing

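The main effect had 4837 calls in the design used. It had between 3414 and 5431 when 1 library was left out, 1559 without the 4 liver-rich libraries, 234 with the liver covariate and 0 with the long-transcript covariate. Scaling, filters, DESeq2, limma, 4 group means and il2rga status alone kept the count within 1.5 times. The labels do not say whether replicate numbers pair the animals. Libraries were correlated across genes after the group means were removed, which cannot decide on pairing. Same-number pairs had a median of 0.0395 and other pairs one of -0.009. Above 0.1 were 6 of 18 same-number pairs, and 1 of the 6 within the contrast. The highest was 0.518, between il2rga mutant 3 and double mutant 3. With the replicate number as a block the main effect had 4151 calls, the interaction 0, il2rga mutants against wild type 170 in place of 942, and double against prkdc mutants 556 in place of 236. The DESeq2 Wald test gave 2364, 2790 and 49 calls for il2rga mutants against wild type, double against prkdc mutants and the interaction. The fit on all 12 libraries gave 2717 for double against prkdc mutants. Leaving out 1 library gave 1 to 1105 calls for il2rga mutants against wild type, 0 to 1446 for double against prkdc mutants and 0 to 1 for the interaction, the 1 without prkdc mutant 1.

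Among named genes called in the design used, 120 lost their call but kept their sign with the liver covariate and 77 without the 4 libraries. Called log2 fold changes that changed sign with the liver covariate were 0.09 for mhc2daa, 0.15 for cd74b, -3.40 for zp3d.2, -1.88 for figla, -2.41 for zp2.1, -2.98 for ddx4, -3.75 for tdrd1, -0.11 for tdrd9, -2.25 for piwil2, -2.36 for cyp17a1, -1.58 for hsd3b2 and -0.42 for scarb1. Without the 4 libraries ddx4 had -0.62 and tdrd1 -0.59. Genes that were not called also changed sign, such as pax5 at 0.63 with the liver covariate and 0.27 without the 4 libraries. With the long-transcript covariate the values were 2.22 for PTPRU, 0.10 for tox2, -0.09 for nhej1, -0.38 for xrcc5, -0.74 for mmp9, -0.43 for cyba, 0.28 for flt3, 0.45 for GATA2, 0.26 for eif2ak2, -1.12 for ddx4, 1.93 for LRP2, 0.26 for podxl, 1.06 for nphs1, 0.69 for pdgfrb and 0.87 for ppm1e. The cause was not tested. Over all alternatives the median of the oxidative phosphorylation list ran from 0.87 to 1.41 and that of the very long transcripts from -0.97 to -0.08. Genes under about 1 CPM rest on few counts.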

Other observations

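Genes of DNA replication and mitosis were higher in libraries with the il2rga mutation, with 14 of 35 called higher and 0 lower (median 0.92), beside 13.2% and 13.1% of all genes. The rise was mostly in 1 background, with a median of 0.29 against wild type and 1.48 against prkdc mutants. The mean level of the list was 6.05 log2 CPM in il2rga mutants and 6.56 in double mutants, against 4.77 in prkdc mutants and 5.64 in wild type. The mitotic kinase aurkb had 70.17, 56.9 and 57.4 CPM in il2rga mutants and 138, 47.9 and 102 CPM in double mutants, against 28.4, 10.4 and 17.3 CPM in prkdc mutants and 29.2, 39.7 and 34.7 CPM in wild type, and rose by 1.6 ± 0.36 (adjusted p = 0.00905). The proliferation marker mki67, chosen after its values were seen, had a log2 fold change of 0.24 ± 0.31 (adjusted p = 0.592). Without the 4 liver-rich libraries 1 of the 35 was called, with a median of 1.06, and with the liver covariate 0, with a median of 0.61.

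Of 19 p53 target genes 4 rose and 0 fell, beside 13.2% and 13.1% of all genes, and rps27l had 39.8, 49.7 and 51.1 CPM as its lowest, median and highest level with the mutation against 15.8, 20.2 and 25.8 CPM without it. It rose by 1.2 ± 0.14 (adjusted p = 0.00026) and was called in all 3 fits. Of 31 immediate early and heat shock genes 3 rose and 3 fell, below the shares of all genes. jund fell by 2.11 ± 0.23 (adjusted p = 0.000192), whereas both genes named JUNB rose (1.58 ± 0.27 and 1.38 ± 0.30, adjusted p = 0.00219 and 0.00689), and neither JUNB gene passed in the other 2 fits. jund passed without the 4 libraries (-2.06, adjusted p = 0.0217) but not with the liver covariate (-2.07, adjusted p = 0.0573). Of 24 red cell genes edgeR called 0, and of 17 thrombocyte genes 2 rose and 3 fell, beside 13.2% and 13.1% of all genes. The receptor KIT, which marks blood progenitors, had 9.57 to 17.8 CPM against 28.1 to 57.0 CPM and fell by 1.53 ± 0.19 (adjusted p = 0.000383), 1 of 3 falls among 18 stem and progenitor genes, beside 13.1% of all genes. KIT passed without the 4 libraries (-1.74, adjusted p = 0.0141) but not with the liver covariate (-1.52, adjusted p = 0.078).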
